A study of Mus musculus with 12 samples.

Results

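The 10 genes described here are integrin genes of dermal cells: the alpha chains Itga1, Itga3, Itga5, Itga8, Itga11 and Itgav, the beta chains Itgb1, Itgb3 and Itgb5, and the beta-like gene Itgbl1. They were taken by symbol from the array annotation, with the brightest probe set kept for each symbol, and make up 10 of the 22180 genes with a symbol of their own. Itga3 lay above the array median on 0 of the 12 arrays and was not tested, so that 9 of the 10 stand among the 13153 genes tested. The cells were skin-derived precursors (SKPs), dermal cells grown as secondary spheres, from mice aged 9 months of the strain spelled CD57/Bl6 in the labels. Their 4 groups, each of 3 independent isolates, came from wounds given vehicle, wounds given trimebutine maleate (an agent acting on gut motility), wounds given alprostadil (prostaglandin E1), and skin that was not injured and was given vehicle. All isolates had passed through sphere culture before RNA was taken. Cultures of every group held 50000 cells per ml, FGF2 (40 ng/ml), EGF (20 ng/ml) and B27 supplement (2%). The sources used here give neither dose, route and timing of the drugs nor the part of the body. RNA was measured on Affymetrix Mouse Gene 2.0 ST arrays, and levels are the deposited log2 values.

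Integrins are receptors that hold cells to the extracellular matrix. Each is a pair of an alpha and a beta chain that spans the membrane, binds matrix outside the cell and couples through adaptor proteins such as talin and vinculin to actin inside it. In dermal fibroblasts they bind collagen, fibronectin and vitronectin, pull on the matrix and take part in the activation of latent TGF-beta, and they are known for their part in wound closure.

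The 3 wound vehicle arrays did not form a tight group. On the first principal component of the tested genes, wound vehicle held values of 34.1 and 38.9 for replicates 1 and 2 but -13.9 for replicate 3. Wound alprostadil was split in the same direction, with 19.3 and 29.6 for replicates 1 and 2 and -15.4 for replicate 3. The arrays of wound trimebutine lay between -19.3 and -10.8, and those of uninjured vehicle at -27.7, -24.6 and 7.45. The 9 fibroblast markers lay above the array median on all 12 arrays, and their mean level was 12.17, 11.91 and 12.72 log2 units in wound vehicle, 12.68 to 12.72 in wound trimebutine, 12.01, 12.04 and 12.76 in wound alprostadil, and 12.60 to 12.87 in uninjured vehicle. The mean of the 14 macrophage markers was 11.01 on wound alprostadil replicate 1 and 6.47 to 7.69 on the other arrays, of which wound vehicle replicates 2 (7.69) and 1 (7.22) were the highest. Of the 10 tested macrophage markers, 9 had a difference above 0 for wound vehicle minus uninjured vehicle, against 51.4% of all tested genes. For wound trimebutine minus wound vehicle, 9 were below 0, against 50.0% of all tested genes. Of these 9, 5 were without overlap, and 6.63% of all tested genes were lower without overlap. None of the markers passed in either comparison (smallest limma adjusted p 0.563 and 0.555). The model SE pools the spread of all 4 groups, and so takes in wound alprostadil with its high replicate 1. For Cd68 the injury difference was 1.02 ± 0.90, beside SDs of 0.31 in wound vehicle and 0.38 in uninjured vehicle. These adjusted p-values therefore cannot show that the groups compared were alike in the markers. The mean of the 8 pericyte and smooth muscle markers was 7.497, 7.416 and 8.075 in wound vehicle, 7.96 to 8.16 in wound trimebutine, 7.46, 7.63 and 8.13 in wound alprostadil, and 7.67 to 7.92 in uninjured vehicle. Of these 8, 4 were tested, with 2 above 0 and 2 below 0 for wound vehicle minus uninjured vehicle. Acta2 (smooth muscle actin) was at 7.93, 7.84 and 9.95 in wound vehicle, against 8.75, 8.83 and 8.56 in uninjured vehicle. Pdgfrb (11.80, 11.81 and 12.73) and Cspg4 (8.54, 8.32 and 9.40) had the same split in wound vehicle. Myh11 (7.28, 7.25 and 7.30) was level there. Among the fibroblast markers, Lum (11.15, 10.57 and 12.35) and Col3a1 (11.53, 10.64 and 12.55) were split so in wound vehicle. Dcn (13.69, 13.68 and 13.67), Fn1 (13.89, 13.82 and 13.88) and Vim (13.70, 13.61 and 13.80) were nearly level there. The means of the fibroblast and smooth muscle lists, though not each marker, thus set wound vehicle replicates 1 and 2 apart from replicate 3. The endothelial cadherin gene Cdh5 did so too, with 9.98, 9.98 and 7.37 in wound vehicle, against 7.37, 7.52 and 6.41 in uninjured vehicle (2.01 ± 0.72, limma adjusted p = 0.302). Cdh5 also varied within wound trimebutine (7.35, 9.31 and 8.59) and was at 9.20, 8.90 and 8.07 in wound alprostadil. Tek, an endothelial receptor gene, was at 7.72, 7.79 and 8.05 in wound vehicle, against 6.97, 7.14 and 7.64 in uninjured vehicle, without overlap (0.60 ± 0.18, limma adjusted p = 0.221). These were the 2 endothelial markers tested, and Tek did not share the split of Cdh5. The others of the 6 listed, Pecam1, Kdr, Emcn and Tie1, were too dim to be tested. Means over the whole lists of endothelial, keratinocyte, Schwann cell, melanocyte and skeletal muscle markers, most of them dim, lay between 5.98 and 7.12 on all arrays. In such RNA from whole cultures, fewer cells of a type and less RNA per cell cannot be told apart.

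The mean of the 9 tested integrin genes, each centred on its 12 arrays, followed the same split. It was -0.60, -0.78 and 0.27 in wound vehicle, 0.26, 0.30 and 0.11 in wound trimebutine, -0.12, -0.41 and 0.02 in wound alprostadil, and 0.53, 0.43 and 0.00 in uninjured vehicle. Wound vehicle replicates 1 and 2 were the lowest arrays, and replicate 3 of that group lay among the trimebutine and uninjured arrays. The part that the makeup of the cultures has in this was not tested. The map of centred values shows the split gene by gene.

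**Figure D1:**
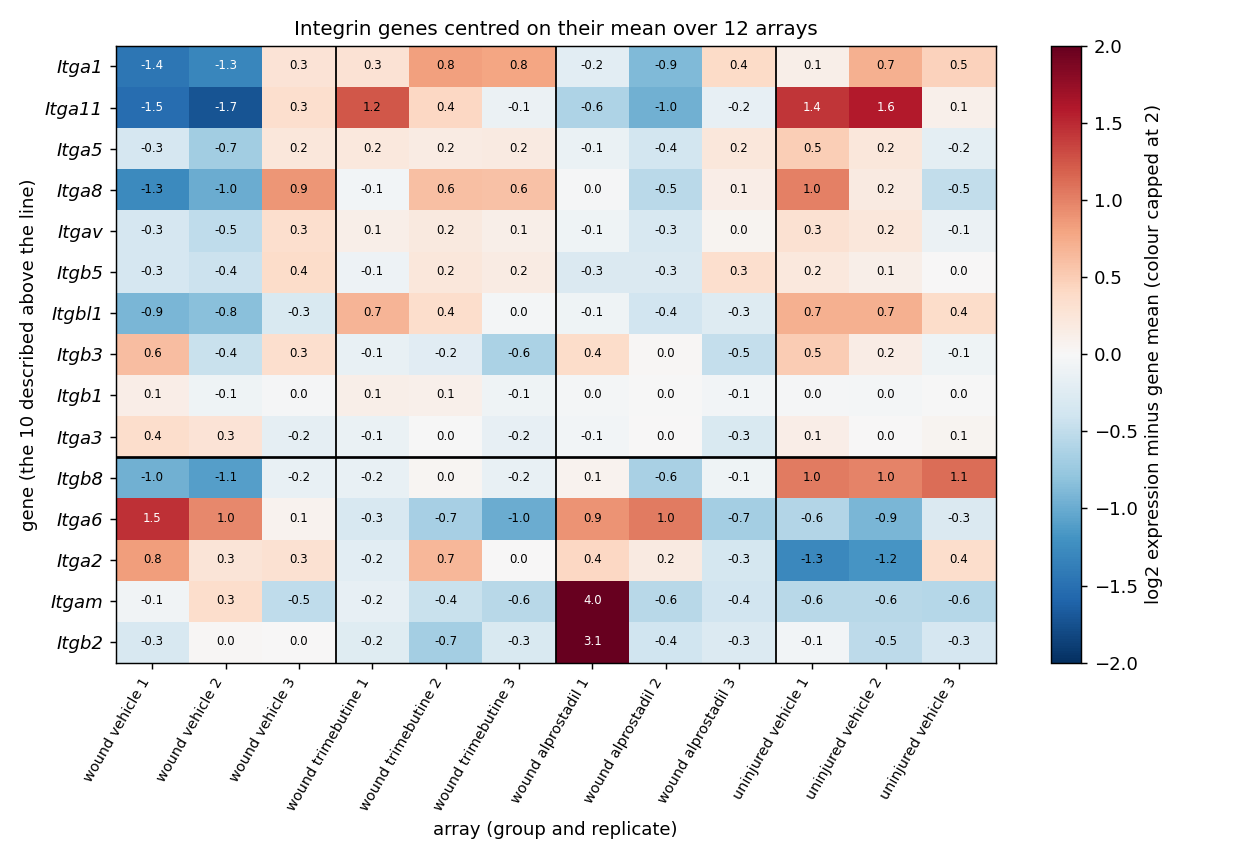
Heat map of log2 expression minus the gene's mean over 12 arrays for the 10 integrin genes (above the line) and 5 other integrin genes (below it), with arrays in columns by group. Wound vehicle replicates 1 and 2 are low for Itga1, Itga11, Itga8 and Itgbl1, Itgb1 is nearly constant, and Itgam and Itgb2 stand out on wound alprostadil replicate 1.

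Itga11 and Itga1 encode alpha chains of collagen receptors, both of which pair with the beta chain encoded by Itgb1. Itga11, a receptor chain for fibrillar collagen on fibroblasts, was at 7.70, 7.51 and 9.57 log2 units on the wound vehicle arrays, 10.47, 9.64 and 9.11 in wound trimebutine, 8.61, 8.26 and 9.07 in wound alprostadil, and 10.65, 10.82 and 9.33 in uninjured vehicle. The low arrays were wound vehicle replicates 1 and 2, and wound vehicle replicate 3 lay above uninjured vehicle replicate 3, so that the injury groups overlapped. The group means ran in the order wound vehicle (8.26 ± 1.14, SD, n = 3), wound alprostadil (8.64), wound trimebutine (9.74) and uninjured vehicle (10.27 ± 0.82). Itga11 was lower by -2.01 ± 0.58 log2 units in wound vehicle than in uninjured vehicle (model SE, limma adjusted p = 0.218), which did not pass the threshold of 0.05. Its range over the 12 arrays, 3.31 log2 units, was the widest of the 10 genes.

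Itga1, a collagen receptor chain that also binds the collagen of basement membranes, was at 7.68, 7.81 and 9.40 in wound vehicle, 9.41, 9.95 and 9.92 in wound trimebutine, 8.92, 8.24 and 9.51 in wound alprostadil, and 9.24, 9.84 and 9.59 in uninjured vehicle. All 3 trimebutine arrays lay above the wound vehicle arrays, but the gap between wound trimebutine replicate 1 and wound vehicle replicate 3 was only in the second decimal. The difference between wound trimebutine and wound vehicle was 1.46 ± 0.45 (adjusted p = 0.528), and that between wound vehicle and uninjured vehicle was -1.26 ± 0.45 (adjusted p = 0.297). Without wound vehicle replicates 1 and 2, the value for injury was -0.15 for Itga1 and -0.70 for Itga11. The value for trimebutine against wound vehicle was then 0.36 for Itga1 and 0.18 for Itga11. Those 2 arrays were left out after their low values were seen, which leaves 1 wound vehicle array. Leaving out replicate 3 of that group instead gave -1.81 and -2.66 for injury, and 2.01 and 2.14 for trimebutine.

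Itga5, Itgav and Itga8 encode the alpha chains that recognise the RGD motif of fibronectin, vitronectin and related proteins. Itga5, the chain of the main fibronectin receptor, was at 11.58, 11.22 and 12.15 in wound vehicle, 12.13, 12.07 and 12.10 in wound trimebutine, 11.79, 11.55 and 12.14 in wound alprostadil, and 12.41, 12.14 and 11.71 in uninjured vehicle. The trimebutine arrays were within 0.06 of each other, and every other group held arrays on both sides of 12. The injury difference was -0.44 ± 0.24 (adjusted p = 0.473).

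Itgav, which pairs with several beta chains in receptors for vitronectin and for latent TGF-beta, followed the same order of groups. It was at 11.68, 11.50 and 12.35 in wound vehicle, 12.13, 12.21 and 12.12 in wound trimebutine, 11.93, 11.70 and 12.06 in wound alprostadil, and 12.31, 12.24 and 11.90 in uninjured vehicle. Wound vehicle replicate 3 was the highest of the 12 arrays and replicate 2 the lowest, and the 3 trimebutine arrays lay above the 3 alprostadil arrays without overlap. The injury difference was -0.30 ± 0.20 (adjusted p = 0.541), and the difference between trimebutine and alprostadil was 0.26 ± 0.20 (adjusted p = 0.755).

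Itga8, a chain that binds nephronectin and fibronectin in mesenchymal cells, was at 7.23, 7.52 and 9.39 in wound vehicle, 8.45, 9.11 and 9.09 in wound trimebutine, 8.49, 7.98 and 8.64 in wound alprostadil, and 9.52, 8.69 and 8.02 in uninjured vehicle. Wound vehicle held the lowest array and an array near the top, and uninjured vehicle was spread from 8.02 to 9.52. The injury difference of -0.69 ± 0.54 (adjusted p = 0.601) was within this spread, and it was 0.65 without wound vehicle replicates 1 and 2. Without those arrays Itga5 and Itgav were also above uninjured vehicle, by 0.06 and 0.21.

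Itga3 encodes an alpha chain of a laminin receptor that is abundant in keratinocytes. Its probe set read 6.61, 6.53 and 6.07 in wound vehicle, 6.12, 6.24 and 6.09 in wound trimebutine, 6.20, 6.27 and 5.94 in wound alprostadil, and 6.39, 6.26 and 6.31 in uninjured vehicle. All 12 values were under the medians of their arrays, which were 6.57 to 6.74. With no filter on dim probe sets, its adjusted p was 0.643 or more in each of the 6 comparisons.

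**Figure D2:**
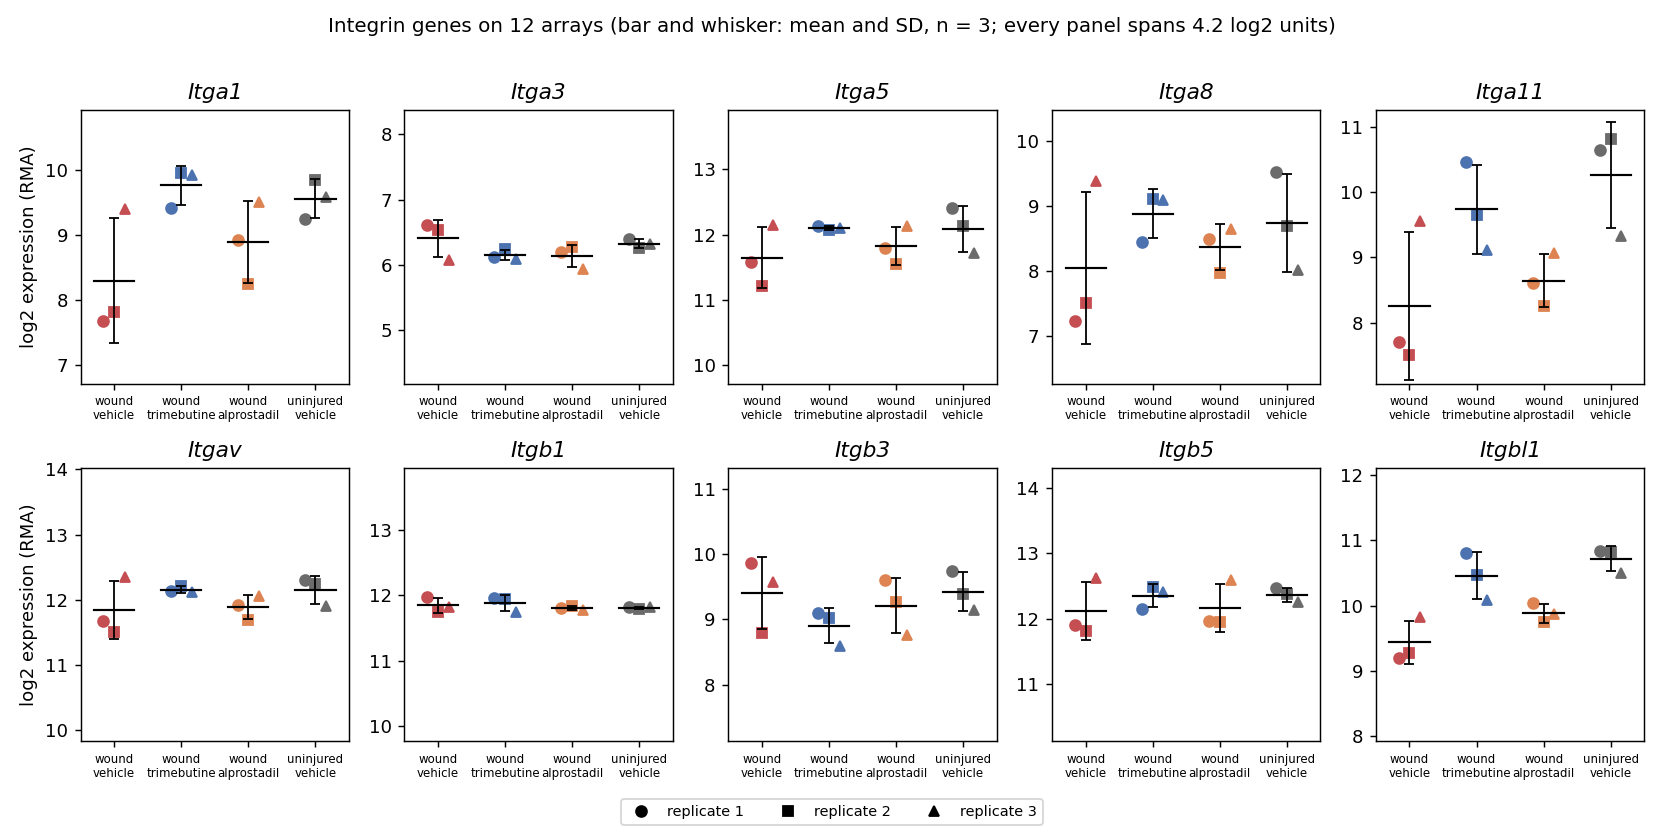
Log2 expression (vertical axis, RMA) of the 10 integrin genes on each array, by group, with the mean and SD of 3 arrays; every panel spans the same 4.2 log2 units. Itga1, Itga8 and Itga11 are spread widely within wound vehicle, Itgb1 is level at 11.75 to 11.98, and all wound vehicle arrays of Itgbl1 are below all uninjured vehicle arrays.

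The 3 beta chains differed in how they varied. Itgb1, the partner of most of these alpha chains, was at 11.98, 11.75 and 11.82 in wound vehicle, 11.96, 11.94 and 11.75 in wound trimebutine, 11.80, 11.84 and 11.78 in wound alprostadil, and 11.82, 11.80 and 11.82 in uninjured vehicle. Its 12 arrays covered 0.23 log2 units, the narrowest range of the 10 genes, and no group stood apart. The injury difference was 0.04 ± 0.08 with a 95% interval of -0.15 to 0.22 (adjusted p = 0.872), and its sign turned to -0.02 when each array was centred on its median.

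Itgb5 pairs with the alpha chain encoded by Itgav in a vitronectin receptor. It was at 11.91, 11.81 and 12.62 in wound vehicle, 12.15, 12.48 and 12.41 in wound trimebutine, 11.95, 11.95 and 12.59 in wound alprostadil, and 12.46, 12.37 and 12.25 in uninjured vehicle. Replicate 3 was the high array of both wound vehicle and wound alprostadil, above every uninjured array, and the other arrays of these groups were below every uninjured array. The injury difference was -0.25 ± 0.23 (adjusted p = 0.663), and it was 0.26 without wound vehicle replicates 1 and 2.

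Itgb3, the other vitronectin receptor chain that pairs with that of Itgav, was at 9.86, 8.79 and 9.58 in wound vehicle, 9.09, 9.02 and 8.60 in wound trimebutine, 9.61, 9.27 and 8.76 in wound alprostadil, and 9.74, 9.39 and 9.15 in uninjured vehicle. It did not share the low values of wound vehicle replicate 1, which was its highest array. All 3 trimebutine arrays were below all 3 uninjured arrays, with a difference of -0.52 ± 0.30 (adjusted p = 0.848). The injury difference was -0.02 ± 0.30 (adjusted p = 0.985).

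Itgbl1 encodes a protein with EGF-like repeats like those of the integrin beta chains, without their ligand-binding and membrane-spanning parts. It was at 9.20, 9.28 and 9.82 in wound vehicle, 10.80, 10.47 and 10.09 in wound trimebutine, 10.04, 9.75 and 9.87 in wound alprostadil, and 10.83, 10.83 and 10.50 in uninjured vehicle. The 3 wound vehicle arrays were below all trimebutine and all uninjured arrays, and replicate 3 was the highest of them. The group means were 9.43 ± 0.34 in wound vehicle, 9.88 ± 0.15 in wound alprostadil, 10.45 ± 0.36 in wound trimebutine and 10.72 ± 0.19 in uninjured vehicle (SD, n = 3 each). The neighbours wound trimebutine and uninjured vehicle overlapped, as did wound vehicle and wound alprostadil.

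In the injury comparison Itgbl1 was 2.44-fold lower in wound vehicle (-1.28 ± 0.21 log2 units), with an adjusted p of 0.0671 that missed the threshold. It stood 15th by p among the 13153 genes. Leaving out 1 array at a time gave differences of -1.48 to -1.17 and adjusted p-values of 0.0519 or more, and without wound vehicle replicates 1 and 2 the difference was -0.90. Trimebutine against wound vehicle gave 1.02 ± 0.21 for Itgbl1, or 2.03-fold, with an adjusted p of 0.528. By its smallness of p it was number 3 of all genes in that comparison, in which no gene passed.

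**Figure D3:**
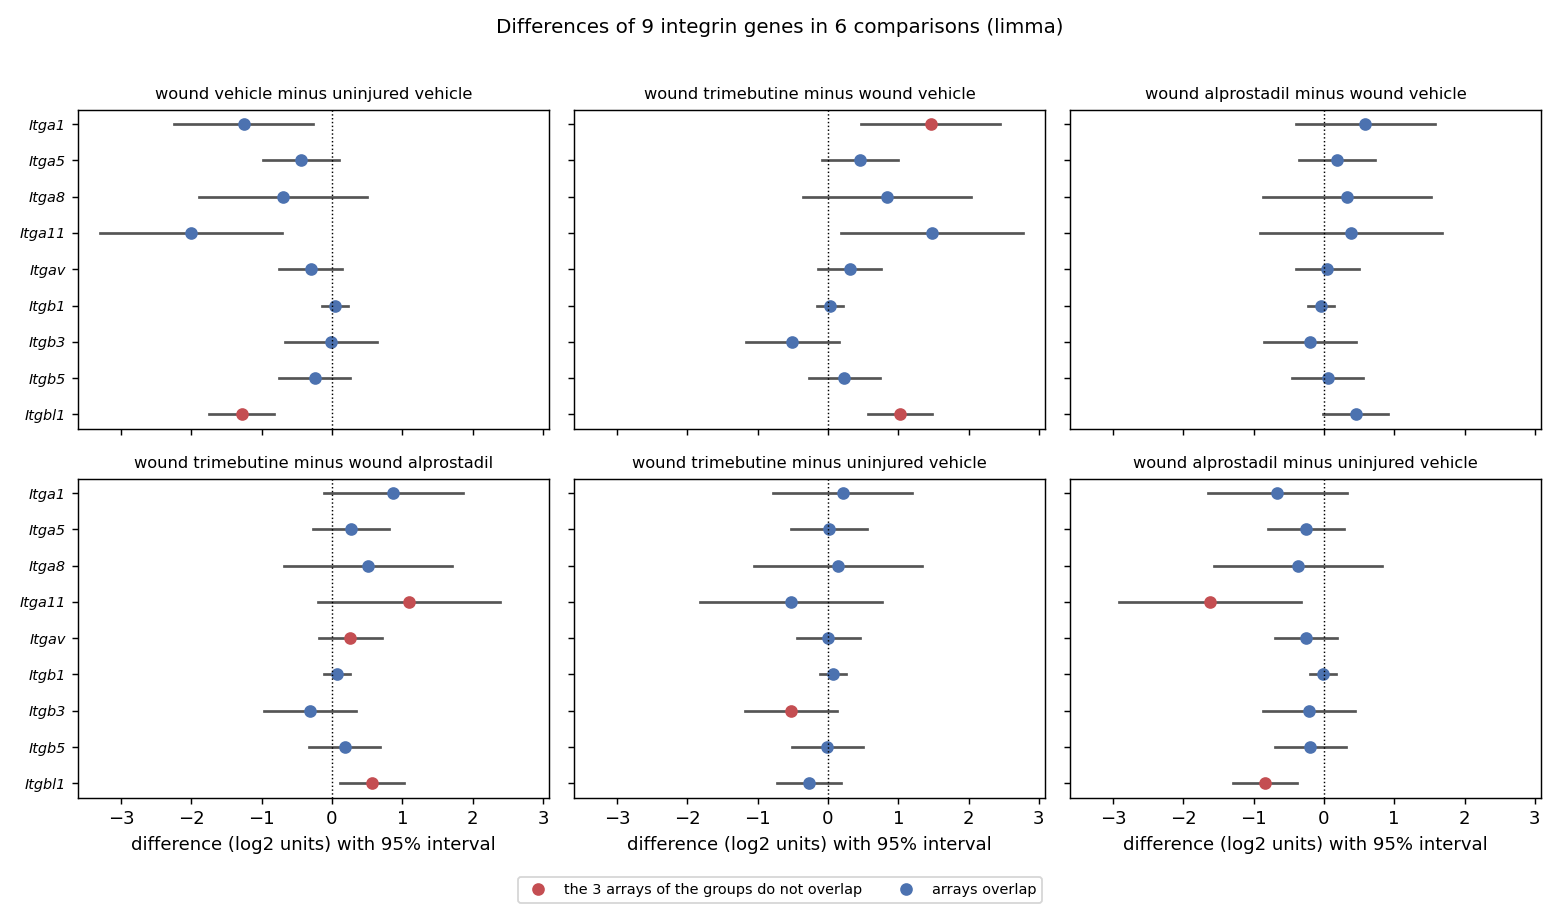
Differences in log2 units (horizontal axis) with 95% intervals from limma for the 9 tested integrin genes in 6 comparisons, red where the 3 arrays of the groups do not overlap. Itga1, Itga11 and Itgbl1 lie to the left in wound vehicle minus uninjured vehicle and to the right in wound trimebutine minus wound vehicle, and Itgb1 has the shortest intervals.

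None of the 9 tested integrin genes passed an adjusted p of 0.05 in limma in any of the 6 comparisons. Array weights called 4997 of the 13153 genes for injury and 4034 for trimebutine against wound vehicle, and 7 of the 9 in each of these. The weights were 2.70, 0.98 and 0.32 for wound vehicle replicates 1 to 3, so that the low replicate 1 counted for more than replicate 3. The largest were 5.99 for uninjured vehicle replicate 2 and 4.69 for wound trimebutine replicate 2. Injury was compared as wound vehicle minus uninjured vehicle, in which 6 of the 13153 genes passed, or 0.0456%. At an unadjusted p under 0.05, the 3 genes Itgbl1, Itga11 and Itga1 were lower, against 8.24% of all genes that were lower at this p. Itgbl1 was the only one of 9 whose arrays did not overlap, against 18.0% of all genes in either direction. Differences below 0 were found for 8 of 9, against 48.6% of all genes, and the median was -0.44, against 0.01 for all genes. Of those 8, the 5 of Itga5, Itga8, Itgav, Itgb3 and Itgb5 were above 0 without wound vehicle replicates 1 and 2. That setting was chosen after the values were seen and leaves 1 wound vehicle array. Leaving out wound vehicle replicate 3 instead gave -0.69 for Itga5, -1.37 for Itga8, -0.55 for Itgav and -0.50 for Itgb5. Itgb3 was lowest without wound vehicle replicate 1, at -0.24.

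Trimebutine was compared with vehicle in wounds, where 0% of genes passed. Itgbl1, Itga1 and Itga11 had an unadjusted p under 0.05 and were higher, 3 of 9 against 6.38% of all genes. Itga1 and Itgbl1 were without overlap, 2 of 9 against 15.8% of all genes, and 8 of 9 were above 0, against 50.0%. The median was 0.45, against 0.00 for all genes. Of those 8, Itga5 (-0.045), Itga8 (-0.51), Itgav (-0.20) and Itgb5 (-0.27) were below 0 without wound vehicle replicates 1 and 2. Leaving out wound vehicle replicate 3 instead gave 0.70, 1.51, 0.56 and 0.49 for these genes. The trimebutine comparison shares the wound vehicle arrays with the injury comparison, so that their opposite signs are not separate results. Itgb3 was the exception, with -0.51 ± 0.30 in trimebutine (adjusted p = 0.567).

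Alprostadil was compared with vehicle in wounds, where again 0% of genes passed. The integrin gene with the smallest p was Itgbl1, at 0.45 ± 0.21 (adjusted p = 0.998). At an unadjusted p under 0.05 there was 0 of 9, against 1.07% of all genes that were higher at this p, and 0 were without overlap, against 5.90%. Differences above 0 were found for 7 of 9, against 59.4% of all genes, with a median of 0.18, against 0.03. Itga11 gave 0.39 ± 0.58 and Itga1 0.59 ± 0.45, and without wound vehicle replicates 1 and 2 these were -0.92 and -0.51. Leaving out wound vehicle replicate 3 instead gave 1.04 for Itga11 and 1.14 for Itga1.

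The 2 drugs were set against each other as trimebutine minus alprostadil, and 0% of genes passed. The dose of neither drug is known, so the difference is one of the groups as treated. Itgbl1 was 0.57 ± 0.21 higher in trimebutine (unadjusted p = 0.0194, limma adjusted p = 0.752), the only one of 9 under an unadjusted 0.05, against 2.50% of all genes that were higher at this p. Itga11, Itgav and Itgbl1 were without overlap, 3 of 9 against 11.2%, and 8 of 9 were above 0, against 46.2%. Itga11 differed by 1.10 ± 0.58, with a 95% interval of -0.20 to 2.39. On wound alprostadil replicate 1, the array with high macrophage markers, Itga1, Itga5, Itga8, Itga11, Itgav and Itgb1 lay between the values of the other alprostadil arrays. Itgb5 was level with replicate 2 there, at 11.95. Itgbl1 (10.04, against 9.75 and 9.87) and Itgb3 (9.61, against 9.27 and 8.76) were highest on that array. None of the 9 was called with that array or without it.

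Against uninjured skin, trimebutine-treated wounds had 26 genes past the threshold, or 0.198%, and none was among the 9. At an unadjusted p under 0.05 there was 0 of 9, against 3.60% of all genes that were lower at this p. Itgb3 was without overlap, 1 of 9 against 13.7%, and 4 of 9 were below 0, against 48.9%. The median was 0.01, against 0.00 for all genes. The interval of Itga11 was wide, with -0.53 ± 0.58, and that of Itgbl1 was -0.72 to 0.19 around -0.26.

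Alprostadil-treated wounds minus uninjured skin gave 0% of genes past the threshold. Itgbl1 (-0.83 ± 0.21, adjusted p = 0.477) and Itga11 (-1.62 ± 0.58, adjusted p = 0.636) were lower at an unadjusted p under 0.05, 2 of 9 against 3.97% of all genes. Both were without overlap, against 9.41%. All 9 were below 0, against 44.6%, with a median of -0.26, against 0.02, and Itgb1 at -0.01 turned to 0.0022 when arrays were centred on the median. Over the 4 groups together, limma's F test called 2 genes, or 0.0152%, and 0 of the 9. Itgbl1 had an F-test p of 0.000371 (adjusted p = 0.163), Itga11 of 0.02 (adjusted p = 0.57) and Itga1 of 0.03 (adjusted p = 0.594), 3 of 9 under 0.05 against 7.89% of all genes.

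Beside these 10 genes, 17 other integrin genes were matched and 10 of them tested. Itgb8, a beta chain that pairs with that of Itgav and activates latent TGF-beta, was at 7.36, 7.23 and 8.17 in wound vehicle, 8.17, 8.38 and 8.18 in wound trimebutine, 8.39, 7.69 and 8.24 in wound alprostadil, and 9.38, 9.32 and 9.44 in uninjured vehicle. Every wound array was below every uninjured array. Itgb8 fell in wound vehicle by -1.79 ± 0.24 (adjusted p = 0.0475) and was the only integrin gene called in any of the 6 comparisons. Over all alternatives its adjusted p ran from 0.00027 to 0.39 with differences of -2.08 to -1.20. The call was lost without wound vehicle replicate 1 (adjusted p = 0.241) or 2 (0.129), without wound trimebutine replicate 1 (0.0582), 2 (0.0999) or 3 (0.0716), or without wound alprostadil replicate 1 (0.0683). It was also lost when uninjured vehicle replicate 1 (0.215), 2 (0.229) or 3 (0.0502) was left out. With all arrays it was lost under the replicate block (0.0649), no filter on dim probe sets (0.0547), median centring (0.0501) and cyclic loess (0.0535). In a fit of only the groups compared, without the arrays of the drug groups, it was lost as well (0.119). It was lost too without the 3 arrays of lowest median (0.26) and without wound vehicle replicates 1 and 2 (0.39). For trimebutine against vehicle in wounds, Itgb8 gave 0.65 ± 0.24 without overlap (adjusted p = 0.528).

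Of the 10 other tested integrin genes, 5 were above 0 and 5 below 0 for injury. Itga6, of laminin receptors, was at 11.15, 10.65 and 9.77 in wound vehicle, 9.38, 9.03 and 8.69 in wound trimebutine, 10.59, 10.74 and 9.01 in wound alprostadil, and 9.11, 8.78 and 9.41 in uninjured vehicle. Its injury difference was 1.42 ± 0.46 (adjusted p = 0.263) and its difference for trimebutine against wound vehicle -1.49 ± 0.46 (adjusted p = 0.528), in both cases without overlap. Itga2, another collagen receptor chain, gave 1.18 ± 0.42 for injury (adjusted p = 0.299), against -1.26 for Itga1 and -2.01 for Itga11. The Itga2 arrays overlapped, at 9.76, 9.17 and 9.23 in wound vehicle and 7.63, 7.74 and 9.27 in uninjured vehicle. The leukocyte chains Itgam and Itgb2 were at 10.50 and 11.46 on wound alprostadil replicate 1, and at most 6.84 and 8.36 on the other 11 arrays. Both belong to the 14 macrophage markers whose mean was high on that array, so they are not a separate observation.

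Genes that work with these receptors were read from 4 further lists, and Itgb8 was the only listed gene to pass. Of 27 tested matrix ligands, 23 had a difference below 0 for wound vehicle minus uninjured vehicle, against 48.6% of all genes, with a median of -0.46. The mean of the ligands, each centred on its 12 arrays, was -0.51, -0.67 and 0.10 in wound vehicle, 0.33, 0.21 and 0.17 in wound trimebutine, -0.19, -0.44 and 0.18 in wound alprostadil, and 0.34, 0.41 and 0.06 in uninjured vehicle. Wound vehicle replicates 1 and 2 were the lowest arrays, and replicate 3 of that group lay above uninjured vehicle replicate 3 and below the trimebutine arrays. Thbs1 (thrombospondin 1, which binds integrins and TGF-beta complexes) gave -1.65 ± 0.31 (adjusted p = 0.114), Ccn1 (a matricellular ligand of several integrins) -2.68 ± 0.66 and Fbln5 (fibulin 5, an RGD protein of elastic fibres) -1.48 ± 0.38. In trimebutine against wound vehicle 24 of 27 ligands were above 0, against 50.0% of all genes, with a median of 0.73, and the same wound vehicle arrays stood apart. Thbs1 gave 1.10 ± 0.31, Lamc1 (a laminin chain) 0.40 ± 0.14 and Col4a1 (basement membrane collagen) 0.90 ± 0.33, each with an adjusted p of 0.528. In alprostadil against wound vehicle 23 of 27 were above 0, against 59.4% of all genes, with a median of 0.18, against 0.03. None of the 27 had an unadjusted limma p under 0.05 or was without overlap there.

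The 26 tested adaptors and kinases, which link integrins to actin, had medians near 0. Their median was 0.04 for injury, with 14 above and 12 below 0, and 0.11 for trimebutine against wound vehicle. The mean of the adaptors, each centred on its 12 arrays, was -0.11, -0.19 and 0.06 in wound vehicle. It was -0.10 to 0.09 in the other groups, so that wound vehicle replicates 1 and 2 were again the lowest arrays, by less. Enah, an actin regulator of focal adhesions, gave -0.99 ± 0.30 for injury (adjusted p = 0.24), Tln2 (a talin) -0.72 ± 0.24 and Pxn (paxillin) 0.27 ± 0.10. For trimebutine against wound vehicle, Tgfb1i1 gave 0.64, Fermt2 (kindlin 2) 0.54 and Vcl (vinculin) 0.56, with adjusted p-values of 0.53, 0.53 and 0.539. Among 15 other matrix receptors and partners, Cd151, a tetraspanin bound to laminin-binding integrins, gave 0.76 ± 0.15 for injury (adjusted p = 0.118), Sdc4 (syndecan 4, a co-receptor for fibronectin) -1.14 ± 0.27 (adjusted p = 0.186) and Cd44 (the hyaluronan receptor) -0.43 ± 0.16.

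**Figure D4:**
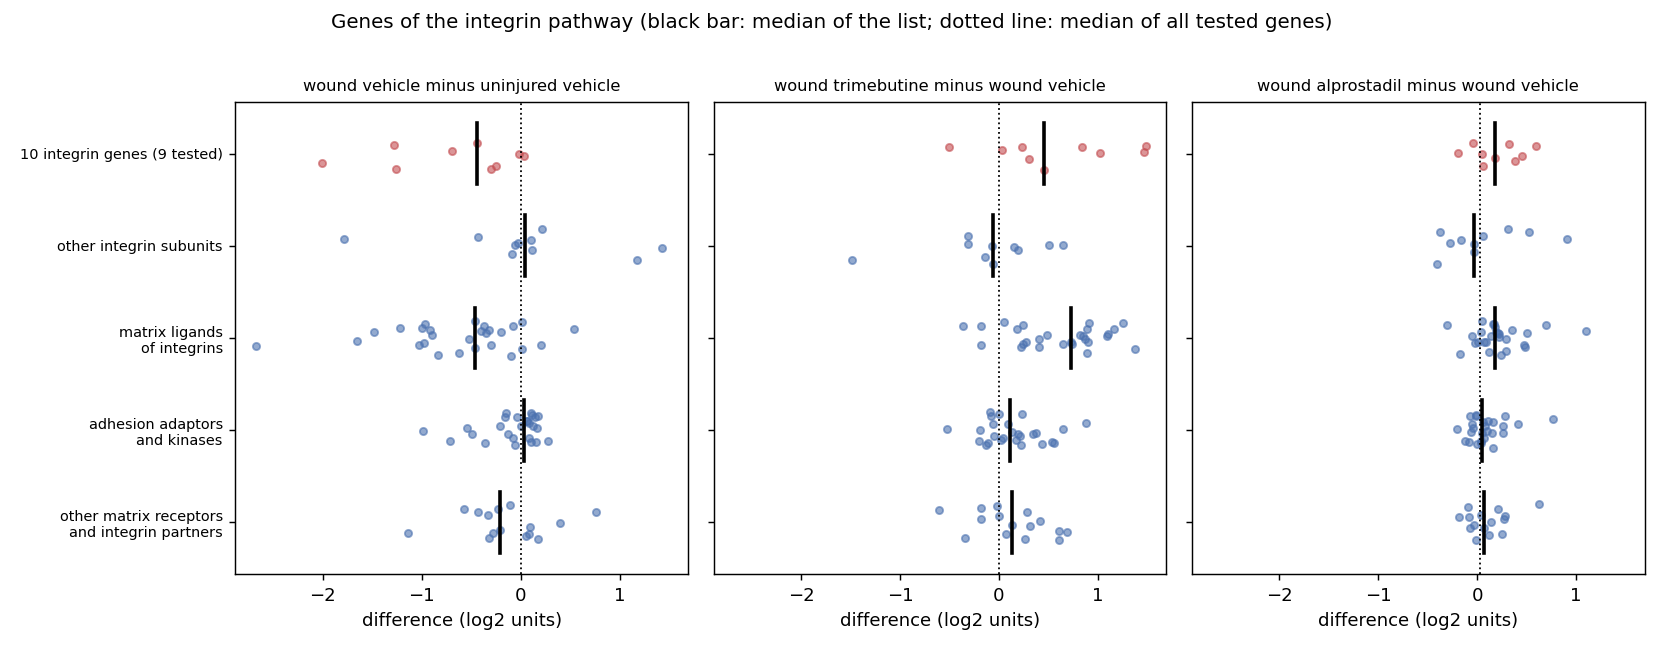
Differences in log2 units (horizontal axis) of tested genes of the integrin genes and 4 related lists in 3 comparisons, with 1 point per gene, a bar at each list's median and a dotted line at the median of all tested genes. Medians of the integrin genes and the matrix ligands are -0.44 and -0.46 for injury, and those of adaptors and kinases lie near the median of all genes.

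The 9 tested genes form 36 pairs, whose Pearson r over 12 arrays is given as a description, since all pairs share the same arrays and their split. The 6 genes Itga1, Itga5, Itga8, Itga11, Itgav and Itgb5, grouped after their values were seen, had r of 0.67 to 0.95 in their pairs. The closest pair was Itga5 and Itgav (r = 0.95), followed by Itga11 and Itgbl1 (0.93) and Itga8 and Itgav (0.92). After subtracting group means, Itga5 and Itgav gave 0.95 and Itga11 and Itgbl1 gave 0.90. Itgb1 had r of -0.20 to 0.39 with the other genes, and Itgb3 had r of -0.31 to 0.39.

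**Figure D5:**
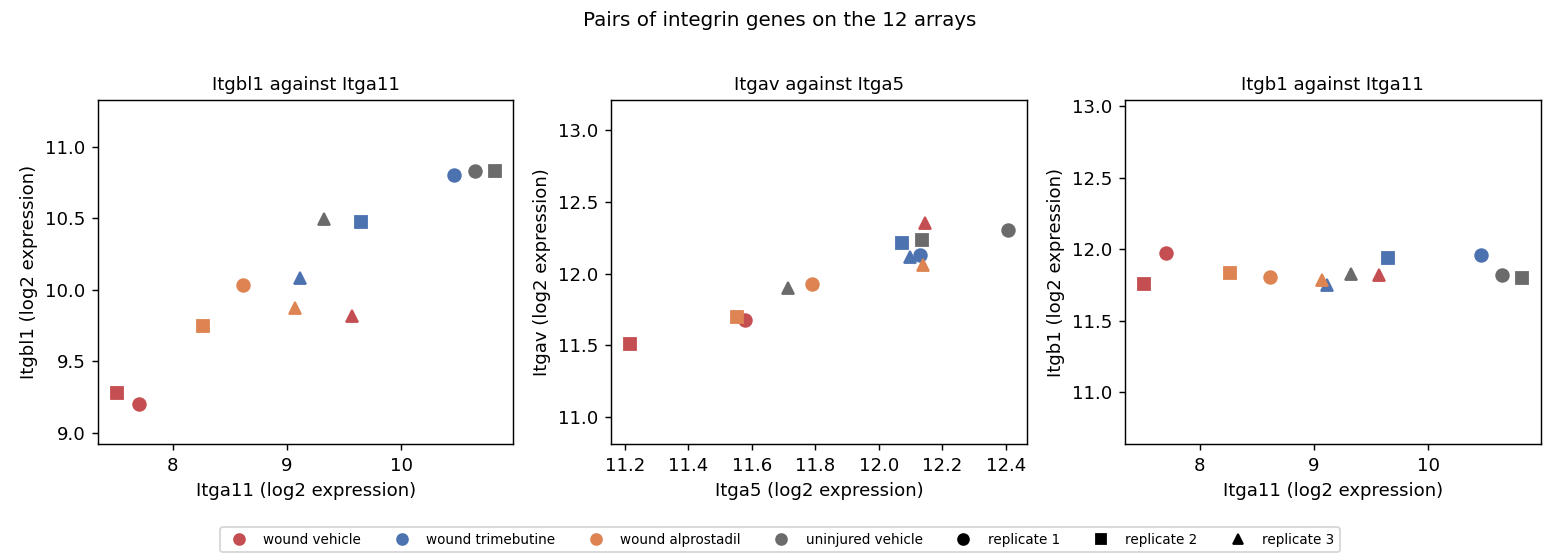
Log2 expression on 12 arrays for Itgbl1 against Itga11, Itgav against Itga5, and Itgb1 against Itga11, with colours for groups and symbols for replicates. Itgbl1 and Itga11 run together over the arrays (r = 0.93), whereas Itgb1 keeps its level over the whole range of Itga11 (r = 0.08).

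For each integrin gene, the 3 tested genes with the highest r over the 12 arrays were looked up. Closest to Itga11 were Ifngr1, the interferon gamma receptor chain (r = 0.97), Clec14a (0.96) and Col4a2, a basement membrane collagen chain (0.96). Closest to Itga1 were the matrix proteoglycan genes Vcan (0.97) and Aspn (0.97), and Sugct (0.96). For Itga5 they were Nmnat2 (0.98), Sdc1, a syndecan (0.98), and B4galt5 (0.97). For Itga8 they were Tcf19 and the co-chaperone gene Bag3 (0.96 each), and Ulbp1 (0.95). For Itgav they were A4galt, Rftn2 and the adhesion receptor gene Vcam1 (0.97 each). For Itgb5 they were Cacna1c (0.97), Pde4d and Olfml2b (0.96 each). For Itgbl1 they were Nrn1 (0.95), Apoe and Pdgfd (0.94 each). Itgb3 was most like Myof (0.91), Rbmxl2 and the BMP antagonist gene Grem1 (0.84 each). Itgb1 had lower values, with Cul3 at 0.87, Cops2 at 0.79 and Gm3940 at 0.76.

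Promoter sequences were read from RefSeq (build GRCm38.p6), as the 250 bases before a transcript start listed there, and 9 of the 10 genes had an entry. For Itga1, Itga5, Itga11, Itgb1 and Itgb5 the window ends where the annotated gene begins, and for Itga3, Itga8, Itgav and Itgbl1 it lies partly or wholly inside the annotated gene. Itga11 and Itga1 are shown as the collagen receptor chains that were low on wound vehicle replicates 1 and 2, and Itgb1 because it is their partner and was level. They lie at chr9:62677605-62677854 (plus strand) for Itga11, chr13:115101965-115102214 (minus strand) for Itga1 and chr8:128685404-128685653 (plus strand) for Itgb1. Capitals mark the motifs found in them.
Itga11: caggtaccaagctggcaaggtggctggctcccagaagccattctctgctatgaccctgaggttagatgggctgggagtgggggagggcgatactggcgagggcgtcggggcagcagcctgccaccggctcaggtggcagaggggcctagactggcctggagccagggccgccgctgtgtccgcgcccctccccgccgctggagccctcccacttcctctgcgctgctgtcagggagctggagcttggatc
Itga1: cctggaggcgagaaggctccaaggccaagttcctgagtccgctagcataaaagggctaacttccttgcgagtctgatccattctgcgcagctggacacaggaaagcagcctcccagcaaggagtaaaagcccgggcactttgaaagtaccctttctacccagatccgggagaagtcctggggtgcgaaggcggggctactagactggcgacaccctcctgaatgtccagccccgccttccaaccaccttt
Itgb1: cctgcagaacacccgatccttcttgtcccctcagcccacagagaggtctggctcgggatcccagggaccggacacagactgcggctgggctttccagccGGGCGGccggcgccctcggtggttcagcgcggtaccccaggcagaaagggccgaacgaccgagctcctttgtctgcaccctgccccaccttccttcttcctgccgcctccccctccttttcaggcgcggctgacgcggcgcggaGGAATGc
Both strands were searched for 5 motifs. The GC box was read as the letters GGGCGG. The AP-1 motif of the Fos and Jun factors was read as TGANTCA. The TEAD motif was read as GGAATG, and the TATA box as TATAAA. The CArG box of serum response factor was searched too, and no motif overlaps another in the sequences shown. Itgb1 held a GC box, 151 to 146 bases before that start, and a TEAD motif, 7 to 2 bases before it, and Itga11 and Itga1 held none of the 5 in this window. Among the 9 genes a GC box was found for Itga3, Itga5, Itgb1, Itgb5 and Itgbl1, and it was present in 32.7% of the 32851 promoters of the table. The AP-1 motif (6.75% of promoters), the TATA box (12.4%) and the CArG box (1.47%) were found in 0 of the 9, and the TEAD motif (12.6%) in Itgb1. A match describes the letters of the window and shows no binding.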

How the data were processed

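RNA from 12 SKP cultures (4 groups of 3) was measured on Affymetrix Mouse Gene 2.0 ST arrays. Per the submitters' processing notes, which name RMA and oligo without versions, the authors made the deposited log2 values per probe set. Scan batches are not given. RMA scales the arrays to 1 common distribution, so differences are relative to the other genes of an array. Array medians were 6.57 to 6.74, no arrays were identical (pairwise r 0.97 to 1.00), and precision is limited by having 3 arrays a group. Of 41345 probe sets, 23521 carry 1 symbol, 1814 several and 16010 none in the platform annotation. The brightest probe set per symbol was kept, and a gene was tested if above the array median on at least 3 arrays. Itgav has a further probe set, below the array median, and the other integrin genes have 1.

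All groups entered 1 fit in limma 3.58.1 (R 4.3.3; lmFit and eBayes, 8 residual degrees of freedom), two-sided, with Benjamini-Hochberg adjustment over 13153 genes. The fit was tested on simulated data. The integrin genes and lists were chosen with earlier results of these data known. Named genes are the 10 integrin genes, listed genes past the threshold or else the 3 of smallest p per related list and comparison, Itgb8, and the 3 genes most like each integrin gene; Itga6 and Itga2 fall under this rule, and Itgam and Itgb2 were named after their values were seen. Same-numbered isolates deviated together (each r above 0.1) for alprostadil against vehicle in wounds and trimebutine against alprostadil, and not in the other comparisons; the replicate block changed no call of the 10 genes but ended that of Itgb8 (adjusted p = 0.0649). Plots were made in matplotlib 3.10.9 under Python 3.11.15.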

Additional observations from a re-analysis of the deposited data

How the results depend on the processing

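Of the 9 tested integrin genes, 0 were called in any comparison or the F test under the replicate block, no filter, the filter on all 12 arrays, the mean of probe sets, median centring, cyclic loess, only the groups compared, each array left out, and the 2 settings chosen after seeing the data. The exception was array weights (0.299 to 5.99 per array), which called 7 for injury (4997 genes in all), 7 for trimebutine against wound vehicle (4034), 2 for trimebutine against uninjured vehicle (2171), 2 for alprostadil against uninjured vehicle (562) and 7 by the F test (5302). Weights are set from the same 12 arrays, and the cause was not tested.

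Counts of all genes for injury (6), trimebutine against uninjured vehicle (26) and the F test (2) became 2, 10 and 0 under the replicate block, and 1, 17 and 1 under median centring. Trimebutine against uninjured vehicle gave 12 with the filter on all 12 arrays (F test 0), 16 with cyclic loess (F test 1) and 15 with only the groups compared (injury 0). All 3 were 0 without the 3 arrays of lowest median. Those arrays were replicate 1 of uninjured vehicle (6.61), wound trimebutine (6.62) and wound alprostadil (6.57), whereas wound vehicle replicate 1 had a median of 6.73. Leaving out 1 array gave 0 to 30 for injury, 0 to 11 for trimebutine and 0 to 1 for alprostadil against wound vehicle, 0 to 1 between the drugs, 0 to 30 for trimebutine and 0 to 11 for alprostadil against uninjured vehicle, and 0 to 6 by the F test.

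Signs of uncalled differences turned as follows. For Itgav, the mean of probe sets gave -0.039 for alprostadil against wound vehicle and -0.042 for trimebutine against uninjured vehicle. For Itgb1, median centring gave -0.016 for injury, 0.018 for alprostadil against wound vehicle and 0.0022 for alprostadil against uninjured vehicle. Array weights gave Itgb3 0.17 for injury, Itgb1 -0.0084 for trimebutine against wound vehicle, Itga5 -0.051, Itgav -0.033 and Itgb5 0.073 for trimebutine against uninjured vehicle, and Itgb1 0.018 for alprostadil against uninjured vehicle. Without the 3 arrays of lowest median, Itgb3 gave 0.14 for injury, Itgb1 -0.0055 for trimebutine against wound vehicle and Itgb5 0.14 for trimebutine against uninjured vehicle. Without wound vehicle replicates 1 and 2, injury gave Itga5 0.059, Itga8 0.65, Itgav 0.21, Itgb3 0.15 and Itgb5 0.26; trimebutine against wound vehicle gave Itga5 -0.045, Itga8 -0.51, Itgav -0.20 and Itgb5 -0.27; alprostadil against wound vehicle gave Itga1 -0.51, Itga5 -0.32, Itga8 -1.02, Itga11 -0.92, Itgav -0.46 and Itgb5 -0.45. The lone wound vehicle array is there assumed to vary like the other groups.

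Leaving out 1 array, signs turned within these ranges: for injury, Itgb1 -0.026 to 0.085 and Itgb3 -0.24 to 0.29; for trimebutine against wound vehicle, Itgb1 -0.015 to 0.10; for alprostadil against wound vehicle, Itga5 -0.034 to 0.43, Itga8 -0.084 to 0.99, Itgav -0.12 to 0.30, Itgb1 -0.092 to 0.020, Itgb3 -0.51 to 0.030 and Itgb5 -0.16 to 0.31; for trimebutine against uninjured vehicle, Itga5 -0.17 to 0.17, Itga8 -0.22 to 0.53, Itgav -0.12 to 0.087 and Itgb5 -0.078 to 0.087; for alprostadil against uninjured vehicle, Itga8 -0.73 to 0.016, Itgb1 -0.021 to 0.0061 and Itgb3 -0.41 to 0.012. In all, 26 of these differences turned and 622 kept direction and call.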

Other observations

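For genes of the 4 related lists, the 3 of smallest p in the remaining comparisons are given as log2 differences with the model SE. None passed limma's adjusted threshold. In alprostadil against vehicle in wounds, where each adjusted p was 0.998, the matrix ligands were Edil3 (an RGD protein) at 0.70 ± 0.36, and the laminin chains Lama4 at 0.35 ± 0.19 and Lamb2 at -0.31 ± 0.17. The receptors were Sdc4 at 0.63 ± 0.27, Cd44 at 0.28 ± 0.16 and the tetraspanin Cd82 at 0.27 ± 0.18. The adaptors were Pxn at -0.20 ± 0.10, Tns3 (a tensin) at 0.26 ± 0.15 and Flna (filamin A) at 0.15 ± 0.10. The integrin genes were Itga2b at -0.27 ± 0.12, Itgb8 at 0.52 ± 0.24 and Itgb7 at -0.16 ± 0.08.

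In trimebutine minus alprostadil, where each adjusted p was 0.752, the ligands were Ccn2 (a matricellular protein) at 1.22 ± 0.43, Col6a2 at 0.88 ± 0.41 and Col4a1 at 0.71 ± 0.33. The adaptors were Parva (parvin, which binds integrin-linked kinase) at 0.31 ± 0.12, Tns3 at -0.34 ± 0.15 and Sharpin at -0.13 ± 0.07. The receptors were Plaur (the urokinase receptor) at -0.86 ± 0.35 and the collagen receptor kinases Ddr1 at 0.54 ± 0.26 and Ddr2 at -0.31 ± 0.17. The integrin genes were Itga6 at -1.08 ± 0.46, Itga9 at 0.45 ± 0.27 and Itgb2 at -1.22 ± 0.74.

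Both drug groups were also set against the same uninjured arrays. In wound trimebutine, Itgb8 gave -1.14 ± 0.24 (limma adjusted p = 0.169), Itga2 0.87 ± 0.42 and Itga7 0.13 ± 0.16. The ligands there were Ccn2 at 1.06 ± 0.43, Ccn1 at -1.30 ± 0.66 and Thbs1 at -0.55 ± 0.31. The adaptors were Enah at -0.76 ± 0.30, Tns1 at 0.52 ± 0.23 and Kank2 at 0.29 ± 0.15, and the receptors Cd151 at 0.58 ± 0.15 (limma adjusted p = 0.283), Sdc4 at -0.53 ± 0.27 and Ddr2 at -0.28 ± 0.17.

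In wound alprostadil, Itgb8 gave -1.27 ± 0.24 (limma adjusted p = 0.259), Itga6 1.02 ± 0.46 and Itga2 0.79 ± 0.42. The ligands there were Thbs1 at -1.17 ± 0.31, Fbln5 at -0.98 ± 0.38 and Tnc (tenascin C) at -1.12 ± 0.45. The adaptors were Enah at -0.83 ± 0.30, Sharpin at 0.14 ± 0.07 and Tln2 at -0.46 ± 0.24, and the receptors Cd151 at 0.58 ± 0.15 (limma adjusted p = 0.504), Sdc4 at -0.51 ± 0.27 and Plaur at 0.65 ± 0.35.

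For trimebutine against vehicle in wounds, Itgb8 gave 0.65 ± 0.24, Itga9 0.51 ± 0.27, Ddr1 0.61 ± 0.26, Dag1 (dystroglycan) 0.42 ± 0.18 and Sdc4 0.61 ± 0.27.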
